A study of Homo sapiens with 6 samples.

Results

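The serpins are a family of protease inhibitors, and here they are the 23 of 16720 named genes in the count table whose symbol starts with SERPIN, of which 22 are described. An inhibitory serpin offers an exposed loop to its protease, is cut there, and then changes shape so that the protease is trapped and inactivated. Hepatocytes secrete many of the serpins of blood plasma, which restrain coagulation, fibrinolysis and the proteases of neutrophils. Other members work inside cells, carry hormones, or act as chaperones without inhibiting a protease.

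RNA was sequenced from Hep3B, an established cell line from a human hepatocellular carcinoma. Of the 6 libraries, 3 were of cells with a control guide (sgControl, labelled wild type) and 3 of cells in which RFX6, the gene of a winged helix transcription factor, had been knocked out (sgRFX6). The columns of the count table name RFX6 guide sg3 for the knockout libraries and cas for the control libraries. Guides were delivered with the lentiCRISPRv2 vector, which also carries Cas9 and puromycin resistance, and single-cell clones were expanded after selection with puromycin. How many clones stand behind the 3 sgRFX6 libraries is not given, so that an effect of the knockout and a trait of a clone cannot be told apart. The libraries of a group are numbered 1 to 3, and nothing states that they came from separate cultures, so that p-values measure only the spread between these libraries.

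Of the 22 serpin genes, 13 had enough counts to be tested and 9 did not. With edgeR's quasi-likelihood test and a threshold of 0.05 on the adjusted p-value, 0 of the 13 were called in sgRFX6 against sgControl, while 3.74% of all 12839 tested genes were called. By direction, 1.92% of all tested genes were called higher and 1.81% lower in sgRFX6. DESeq2 also called 0 of the 13, and 0 of the 15 serpin genes to which it gave an adjusted p-value (6.44% of 14108 genes). Limma-voom with sample quality weights called 7 of the 13 (31.1% of 12839 genes). At an unadjusted p-value under 0.05 there were 5 serpin genes in the edgeR test, 4 of them higher in sgRFX6 (SERPINA5, SERPINA6, SERPINB8 and SERPINH1) and 1 lower (SERPINB9), against 15.6% of all tested genes. For 4 genes the libraries of the groups did not overlap. SERPINA5, SERPINA6 and SERPINB8 were higher in every sgRFX6 library and SERPINB9 was lower, while 23.1% of all tested genes did not overlap. The median log2 fold change was 0.09 over the 13 serpin genes and 0.02 over all tested genes. Of the 13 values 10 were positive, against 6765 of all 12839 tested genes.

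Promoter sequence is shown for the serpin genes whose groups did not overlap, to place their values beside common promoter elements. RefSeq windows were matched for 11 of the 13 tested genes. SERPINF1 and SERPINF2 had no entry. The stretches below hold the 200 bases before a transcription start, 5′ to 3′ on the strand of the gene, in RefSeq coordinates on GRCh38.p14. Capitals mark the letters of 4 motifs on either strand, which are GTTGCC (a half-site of the X-box that RFX proteins bind), TATAAA (the TATA box), CCAAT (the CCAAT box) and GGGCGG (the GC box). SERPINA6 lies at chr14:94323337-94323536 on the reverse strand, SERPINA5 at chr14:94581226-94581425 on the forward strand, SERPINB8 at chr18:63969881-63970080 on the forward strand and SERPINB9 at chr6:2903310-2903509 on the reverse strand.
SERPINA6: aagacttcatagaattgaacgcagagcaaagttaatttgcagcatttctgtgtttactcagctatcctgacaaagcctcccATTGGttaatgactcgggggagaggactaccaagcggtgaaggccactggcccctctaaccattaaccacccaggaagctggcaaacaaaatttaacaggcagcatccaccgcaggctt
SERPINA5: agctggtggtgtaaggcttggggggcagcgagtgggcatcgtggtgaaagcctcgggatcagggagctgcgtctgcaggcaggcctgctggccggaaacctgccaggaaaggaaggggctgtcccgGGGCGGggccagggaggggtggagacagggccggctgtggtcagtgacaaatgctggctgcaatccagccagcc
SERPINB8: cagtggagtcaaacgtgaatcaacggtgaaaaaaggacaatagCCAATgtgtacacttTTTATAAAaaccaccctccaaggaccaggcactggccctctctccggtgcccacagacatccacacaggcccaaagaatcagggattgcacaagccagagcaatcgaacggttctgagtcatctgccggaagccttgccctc
SERPINB9: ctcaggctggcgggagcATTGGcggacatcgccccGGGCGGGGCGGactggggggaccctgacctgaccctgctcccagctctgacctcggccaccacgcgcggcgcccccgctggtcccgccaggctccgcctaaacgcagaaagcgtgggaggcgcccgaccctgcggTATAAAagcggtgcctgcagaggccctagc
The SERPINA6 stretch has 1 CCAAT box, which begins 119 bases before the start. In SERPINB9 a TATA box begins 30 bases before the start, and the stretch also has a CCAAT box and 2 overlapping GC boxes. SERPINB8 has TATA letters on both strands 140 and 142 bases before its start, in a single run, and a CCAAT box, and SERPINA5 has 1 GC box. Over the 250 bases before each start, the shares of all 35116 RefSeq windows of that length with each motif were taken as the background. The TATA box was found for 2 genes (10.7% of all windows), the CCAAT box for 6 (32.0%) and the GC box for 8 (42.6%). The letters GTTGCC were found for 4 genes, SERPINA1, SERPINA6, SERPIND1 and SERPINE2, and in 10.2% of all windows. In SERPINA6 they begin 245 bases before the start, outside the stretch shown. A gene with several windows had more chances of a match, and a match of these letters is a description of sequence and not a binding site.

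The libraries held between 16730386 and 25070793 counts, and a gene with 3 counts had a level of 0.122 to 0.189 CPM, its counts scaled by the TMM-adjusted library total. RFX6 itself, at chr6:116877212-116932163 on GRCh38, had 5.64, 5.83 and 7.34 CPM in sgControl and 3.43, 3.71 and 3.50 CPM in sgRFX6. The groups did not overlap, and the log2 fold change was -0.82 (SE, the standard error, 0.26, edgeR adjusted p = 0.142). All 9 hepatocyte markers examined were above 3 counts in at least 1 library, but their levels were unlike. Mean sgControl levels were 151 (HNF4A), 76.1 (APOH), 66.6 (APOB), 26.4 (FGB) and 20.2 CPM (ALB). TF, AFP, APOA1 and TTR were at 2.17, 2.03, 1.06 and 0.482 CPM. The summed level of the 9 was 323 to 385 CPM in sgControl and 249 to 274 CPM in sgRFX6. The sum of 4 biliary markers, mostly KRT19, was higher, at 606 to 976 and 416 to 758 CPM. Leukocyte markers, mostly CD68, summed to 73.0 to 158 CPM in sgControl and endothelial markers to 11.6 to 13.5 CPM. AFP, the fetal plasma protein alpha-fetoprotein, rose (log2 fold change 2.82, edgeR adjusted p = 0.00254) and FGB, a fibrinogen chain, fell (-2.45, edgeR adjusted p = 0.00417). The part of these markers in the serpin values was not tested. SgControl library 2 stood apart for several secreted liver proteins and for other genes, and its value is given beside each serpin gene it touches. CTSB had 917 CPM there against 499 and 530 CPM in the other sgControl libraries, and KRT19 had 956 against 658 and 594 CPM. AFP (1.58 CPM) and APOB (60.6 CPM) had their lowest sgControl values there. SgRFX6 library 3 also stood apart from its group over all genes. Its chi-square against the other sgRFX6 libraries was 99.3 and 124 for each degree of freedom, while it was 18.8 between those. For sgControl library 2 these values were 89.7 and 72.3, against 17.0 between the other sgControl libraries. In each library, the deviation of genes from their group mean was set against the GC content of their longest transcript. Spearman's correlation was -0.56, 0.41 and 0.05 in sgControl libraries 1 to 3 and 0.65, 0.72 and -0.85 in sgRFX6 libraries 1 to 3. The cause of these differences was not tested.

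The 22 serpin genes together took 0.0451%, 0.0572% and 0.0436% of all counts in the sgControl libraries and 0.0552%, 0.0497% and 0.0532% in the sgRFX6 libraries. The groups overlapped, since sgControl library 2 had the highest share, and the means were 0.0486% ± 0.00744 and 0.0527% ± 0.00279 (SD, n = 3 each). SERPINE2 alone made up between 46.2% and 56.8% of these counts. Divided by the length of all annotated exons of the gene (GENCODE release 29), SERPINE2 had a mean of 29 CPM per kb over the 6 libraries, SERPINB1 had 19.5, SERPINF1 had 11.8 and SERPINH1 had 10.3 CPM per kb. The other tested genes described lay between 0.141 (SERPINA5) and 4.46 CPM per kb (SERPINB6). SERPINF1 and SERPINH1, which are neighbours in this order, overlapped across the libraries (5.67 to 23.7 and 7.43 to 13.6 CPM per kb). The order depends on which transcripts are made. Per kb of coding sequence SERPINH1, with 42.7 in sgControl and 60.1 CPM per kb in sgRFX6, came before SERPINF1, with 28.6 and 29.1 CPM per kb. In proportion, SERPINB6 shifted most, to 50.9 and 48.4 CPM per kb of coding sequence, near SERPINB1 with 51.5 and 54.4. In the order SERPINB6 moved only from place 5 to place 4, while SERPINF1 moved from 3 to 5.

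**Figure D1:**
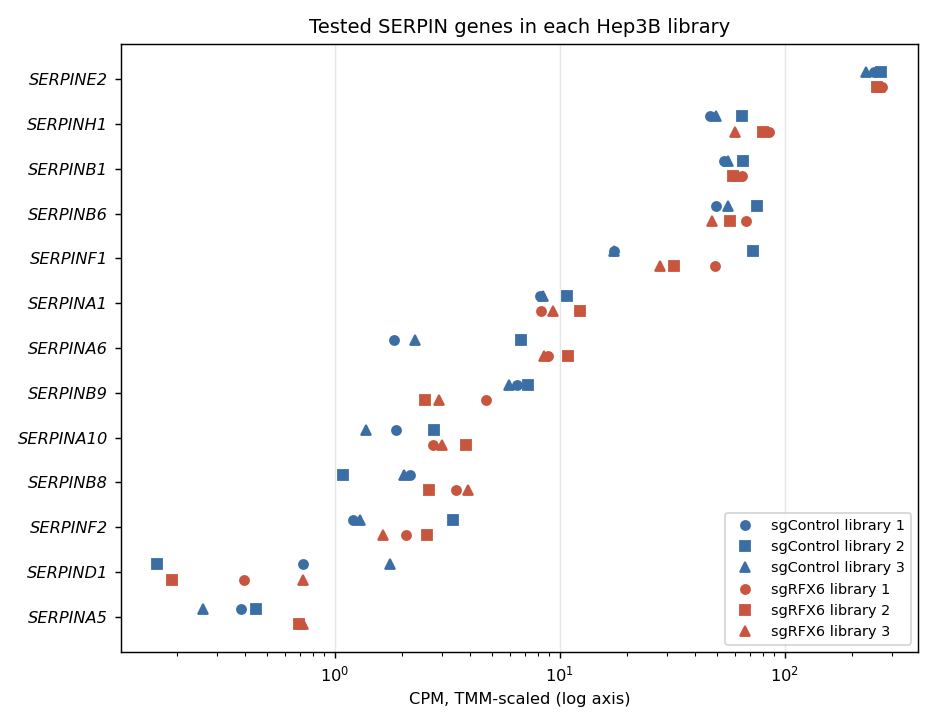
Level of each tested serpin gene in the 6 Hep3B libraries, in CPM on a log axis, with sgControl in blue, sgRFX6 in red and the library number by the shape of the point. Levels of different genes are not divided by length here. SERPINE2 was at 231 to 268 CPM in sgControl and 257 to 272 CPM in sgRFX6, while sgControl library 2 (blue square) stands apart for SERPINF1 and SERPINA6.

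SERPINE2, or protease nexin, inactivates thrombin and the plasminogen activators at cell surfaces. It lies at chr2:223975112-224039319 on the reverse strand and had 251, 268 and 231 CPM in sgControl and 272, 257 and 266 CPM in sgRFX6. The libraries of the groups overlapped. The means were 250.1 ± 18.7 and 265 ± 7.42 CPM (SD, n = 3 each), and the log2 fold change was 0.08 (SE 0.15, edgeR adjusted p = 0.878). SERPINE3, a relative in the same clade, had 1 count in 1 sgControl library and 0 in the other 5.

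Of the plasminogen activators, which make plasmin from plasminogen, 1 changed. PLAT, the tissue plasminogen activator, fell by 4.19 on the log2 scale (SE 0.47, edgeR adjusted p = 0.00260). It was at 8.29, 19.4 and 9.20 CPM in sgControl and at 0.497, 1.01 and 0.545 CPM in sgRFX6, where 10, 16 and 12 reads were counted. PLAT was called in all 15 alternative fits. PLAU, the urokinase, had a log2 fold change of 0.17 (edgeR adjusted p = 0.846) and its receptor PLAUR also 0.17 (edgeR adjusted p = 0.846). For both genes the libraries of the groups overlapped. LRP1, a receptor that takes up complexes of serpins with their proteases, had -0.66 (edgeR adjusted p = 0.343), and sgControl library 2 had 1128 CPM against 576 and 590.3 CPM in the other sgControl libraries. VLDLR, another receptor of such complexes, fell by 1.0 on the log2 scale (SE 0.23, edgeR adjusted p = 0.0450), from 21.3, 27.2 and 20.9 CPM to 13.2, 10.6 and 10.9 CPM. With 1 library left out, VLDLR was called only without sgRFX6 library 3 and was not called in the other 5 fits.

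**Figure D2:**
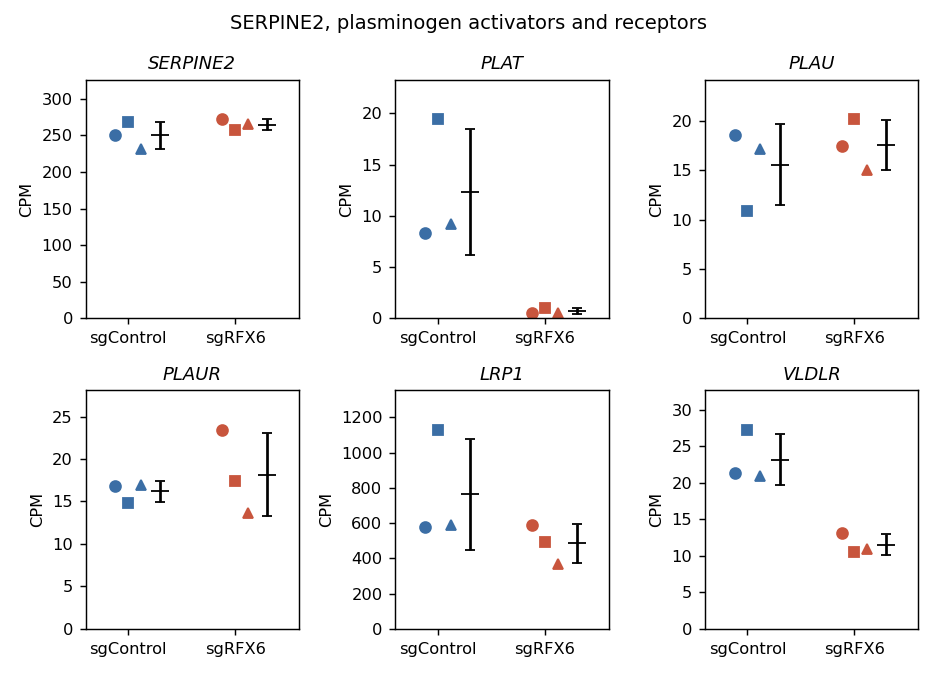
Levels of SERPINE2, 2 plasminogen activators, the urokinase receptor and 2 receptors of serpin complexes, in CPM from 0, with points for the libraries and bars for the mean ± SD of 3 libraries. PLAT fell to 1.01 CPM or less in sgRFX6 and VLDLR to 13.2 CPM or less, while SERPINE2, PLAU, PLAUR and LRP1 overlapped between the groups.

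SERPINH1, known as HSP47, is a chaperone of the endoplasmic reticulum that binds procollagen and inhibits no protease. It lies at chr11:75562056-75572783 on the forward strand and had 46.6, 64.4 and 49.7 CPM in sgControl and 85.4, 80.5 and 60.0 CPM in sgRFX6. The groups overlapped in a single pair, since sgRFX6 library 3 was below sgControl library 2. The log2 fold change was 0.49 (SE 0.21, edgeR adjusted p = 0.301), or 0.63 without sgRFX6 library 3 (edgeR adjusted p = 0.0846) and 0.64 without sgControl library 2 (edgeR adjusted p = 0.209), against a median of 0.35 for the 50 closest tested genes of chromosome 11. With the median of the neighbours taken out in the fit, an alternative chosen after seeing the data, SERPINH1 had 0.14 (edgeR adjusted p = 0.916).

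Of the collagen genes, whose products SERPINH1 helps to fold, 3 fell. COL3A1 was counted 478, 680 and 615 times in sgControl and 2, 0 and 0 times in sgRFX6, at least 163-fold lower when 3 counts are set for each sgRFX6 library (edgeR adjusted p = 0.000290). COL1A2 went from 40, 45 and 43 counts to 2, 2 and 4 (log2 fold change -3.71, SE 0.42, edgeR adjusted p = 0.00276). COL1A1 had 113, 118 and 122 counts against 22, 27 and 20 (-2.08, SE 0.33, edgeR adjusted p = 0.0108). The groups did not overlap for these 3 genes. COL3A1 and COL1A2 were called in all 15 alternative fits. COL1A1 was called in 13 and not without sgControl library 3 (edgeR adjusted p = 0.0558) or sgRFX6 library 1 (edgeR adjusted p = 0.0650). COL4A1 and COL5A1 were too low to be tested, with 8 to 19 counts in every sgControl library and 0 or 1 in every sgRFX6 library. COL4A2, the most highly counted of the other collagens listed, had -0.77 (edgeR adjusted p = 0.314). Among the genes that modify collagen, P4HB had -0.03 (edgeR adjusted p = 0.966) and FKBP10 had -0.48 (edgeR adjusted p = 0.484), with overlapping groups. COL1A1 and COL1A2 also stood in a list of 5 fibroblast and stellate cell markers, whose summed level was 24.7 to 32.5 CPM in sgControl and 21.2 to 56.3 CPM in sgRFX6. The highest sum was that of sgRFX6 library 3, in which LUM alone had 54.7 CPM, and the part of other cells in these values was not tested.

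**Figure D3:**
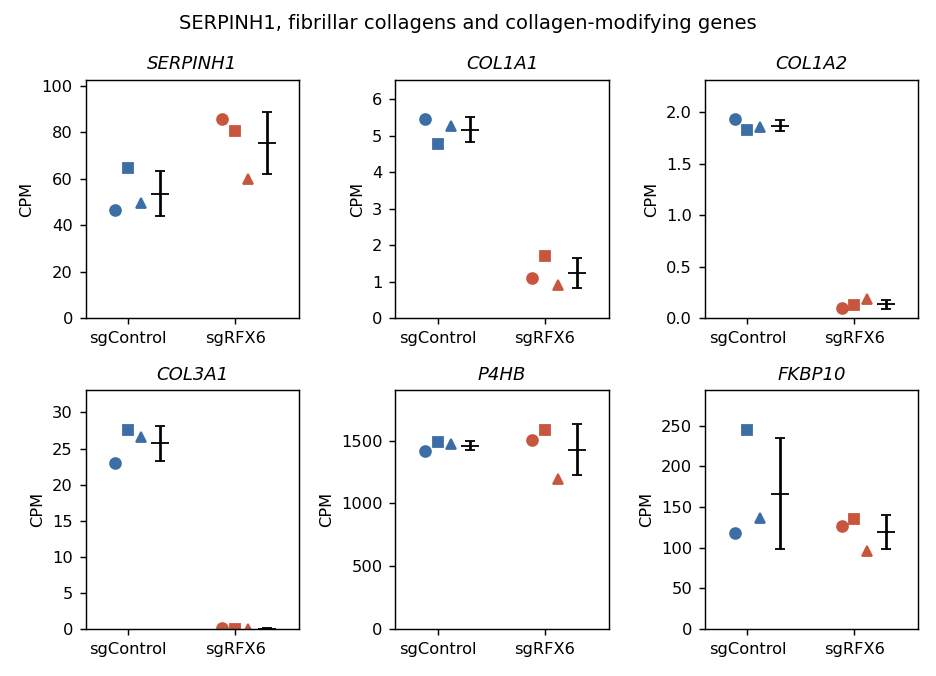
Levels of SERPINH1, 3 fibrillar collagen genes and 2 genes of collagen modification, in CPM from 0, with points for the libraries and bars for the mean ± SD of 3 libraries. COL1A1, COL1A2 and COL3A1 fell in sgRFX6, where SERPINH1 lay at 60.0 to 85.4 CPM against 46.6 to 64.4 CPM in sgControl.

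SERPINA6 encodes the corticosteroid-binding globulin, a plasma carrier of cortisol made by the liver. It lies at chr14:94304248-94323394 on the reverse strand and had the largest log2 fold change of the 13 genes. SERPINA6 was counted 38, 167 and 53 times in sgControl, or 1.83, 6.76 and 2.29 CPM, and 178, 174 and 187 times in sgRFX6, or 8.84, 10.9 and 8.49 CPM. The sgRFX6 libraries were close to each other and above all sgControl libraries, of which library 2 stood apart. The log2 fold change was 1.37 (SE 0.47, edgeR adjusted p = 0.181). Without sgControl library 2 it was 2.18 and called (edgeR adjusted p = 0.0136), and without sgControl library 1 or 3 it was 1.05 or 1.14. NR3C1, the receptor of the hormone that SERPINA6 carries, had 42.5, 36.0 and 33.0 CPM in sgControl and 23.9, 18.0 and 44.2 CPM in sgRFX6. Its log2 fold change was -0.37 (edgeR adjusted p = 0.680), or -0.82 without sgRFX6 library 3 (edgeR adjusted p = 0.0606).

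SERPINF1, the pigment epithelium-derived factor, is a secreted protein that inhibits no protease. It lies at chr17:1761959-1777574 and had 17.5, 72.8 and 17.4 CPM in sgControl and 49.1, 32.4 and 28.1 CPM in sgRFX6. All sgRFX6 libraries lay between sgControl library 2 and the other sgControl libraries. The log2 fold change was 0.02 (SE 0.54, edgeR adjusted p = 0.991), and it was 1.06 without sgControl library 2 and -0.31 without sgControl library 1. SERPINF2, its neighbour on chromosome 17 and the plasma inhibitor of plasmin, had the same layout at a lower level, with 1.20, 3.36 and 1.30 CPM in sgControl and 2.09, 2.58 and 1.64 CPM in sgRFX6. Its log2 fold change was 0.09 (SE 0.46, edgeR adjusted p = 0.962), or 0.73 without sgControl library 2. AGT, the angiotensinogen gene and a relative of the serpins by sequence that the name rule leaves out, also had its highest value in sgControl library 2, with 57.5 CPM against 9.78 and 14.6 CPM, and 55.5, 46.7 and 29.8 CPM in sgRFX6. Its log2 fold change was 0.69 (edgeR adjusted p = 0.669), and without sgControl library 2 it was 1.85 and called (edgeR adjusted p = 0.0402), against 0.29 to 0.90 in the other 5 fits with 1 library left out.

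Of the serpins that the liver secretes to inhibit proteases in plasma, most were at a low level in these cells. SERPINA1, the alpha-1 antitrypsin that protects tissue from neutrophil elastase, lies at chr14:94376747-94390693 and had 8.19, 10.8 and 8.46 CPM in sgControl and 8.25, 12.3 and 9.31 CPM in sgRFX6. The groups overlapped, with a log2 fold change of 0.12 (SE 0.26, edgeR adjusted p = 0.899). SERPINA10, which inhibits activated coagulation factor X together with protein Z, had 1.88, 2.75 and 1.38 CPM against 2.73, 3.83 and 3.0 CPM. Its groups overlapped in a single pair (0.66, SE 0.35, edgeR adjusted p = 0.424). SERPINA5, the protein C inhibitor, was counted 8, 11 and 6 times against 14, 11 and 16 times in sgRFX6, with a log2 fold change of 0.94 (SE 0.41, edgeR adjusted p = 0.312). In CPM its sgRFX6 libraries (0.691 to 0.727 CPM) did not overlap with sgControl (0.259 to 0.446 CPM), but all values rest on 16 reads or fewer. The gene shares 8472 bases of its annotated span with SERPINA4 on the same strand, so that reads of the pair could be mixed. SERPIND1, the heparin cofactor that inhibits thrombin, lies wholly within PI4KA on the opposite strand. Whether the counting used strand is not stated, and its 3 to 41 counts are uncertain (log2 fold change -0.96, SE 0.79, edgeR adjusted p = 0.647).

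The 9 serpin genes too low to be tested included the genes of 2 of the major plasma inhibitors. SERPINC1, which encodes antithrombin, had 0 or 1 count in each sgControl library and 1, 4 and 3 in sgRFX6. SERPING1, the inhibitor of complement C1, had 1 count in each sgControl library and 1, 4 and 4 in sgRFX6. SERPINA3, the antichymotrypsin of the acute phase response, had 1 to 5 counts in all libraries, and SERPINA4, the kallistatin gene, had 0 to 2. SERPINB5 (maspin) had 2 to 10 counts and SERPINI1 (neuroserpin) 1 to 15, the highest again in sgControl library 2. SERPINA9, SERPINA12 and SERPINE3 had 0 or 1 count in each library. In CPM the sgRFX6 libraries of SERPINC1 and SERPING1 were all above the sgControl libraries, on 4 counts or fewer in each. For both genes sgRFX6 library 1 and sgControl library 1 had 1 count each, so that only the scaling set these apart. In the fit without a filter on low counts, all 22 serpin genes were tested and 0 were called.

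Of the serpins of clade B, which work mostly inside cells, SERPINB1, SERPINB6, SERPINB8 and SERPINB9 were tested. SERPINB9 inhibits granzyme B, the protease with which cytotoxic lymphocytes kill their targets. It lies at chr6:2887266-2903280 on the reverse strand and was counted 134, 178 and 138 times in sgControl, or 6.46, 7.21 and 5.96 CPM, and 95, 40 and 64 times in sgRFX6, or 4.72, 2.51 and 2.91 CPM. The groups did not overlap, with a log2 fold change of -0.95 (SE 0.31, edgeR adjusted p = 0.160). SERPINB9 was called in 0 of the 15 alternative fits, with adjusted p-values between 0.0648 and 0.354. GZMB, the gene of its target, had 1 count in sgControl library 2 and 0 in the other libraries.

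SERPINB1 and SERPINB6 flank SERPINB9 in the same cluster of chromosome 6 and were expressed at higher levels per length. SERPINB1, which inhibits the elastase and other proteases of neutrophils, lies at chr6:2832332-2842006 and had 53.9, 65.5 and 56.3 CPM in sgControl and 64.7, 59.0 and 61.9 CPM in sgRFX6. Its log2 fold change was 0.08 (SE 0.17, edgeR adjusted p = 0.899). SERPINB6, an inhibitor of several serine proteases, lies at chr6:2948159-2972165. It had 49.4, 75.6 and 56.0 CPM against 67.6, 57.0 and 47.4 CPM (log2 fold change -0.07, SE 0.22, edgeR adjusted p = 0.934). For both genes the libraries of the groups overlapped. Around SERPINB9, the 50 closest tested genes had a median change of 0.01 on the log2 scale.

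SERPINB8, on chromosome 18, inhibits furin, the protease of the secretory pathway that cuts proproteins. It was counted 45, 27 and 47 times in sgControl and 70, 42 and 86 times in sgRFX6, which is 2.17, 1.09 and 2.03 CPM against 3.48, 2.64 and 3.91 CPM. The groups did not overlap in CPM, with a log2 fold change of 0.93 (SE 0.36, edgeR adjusted p = 0.245), and the nearest 50 tested genes had a median of 0.39. With that median taken out it was 0.54 (edgeR adjusted p = 0.672). SERPINB8 shares 11850 bases of its annotated span with HMSD on the same strand, so that reads of the pair could be mixed. FURIN fell, from 174, 213 and 157 CPM to 93.3, 75.7 and 59.0 CPM, by 1.25 on the log2 scale (SE 0.21, edgeR adjusted p = 0.0144). It was called in all 15 alternative fits, with adjusted p-values of up to 0.0496.

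**Figure D4:**
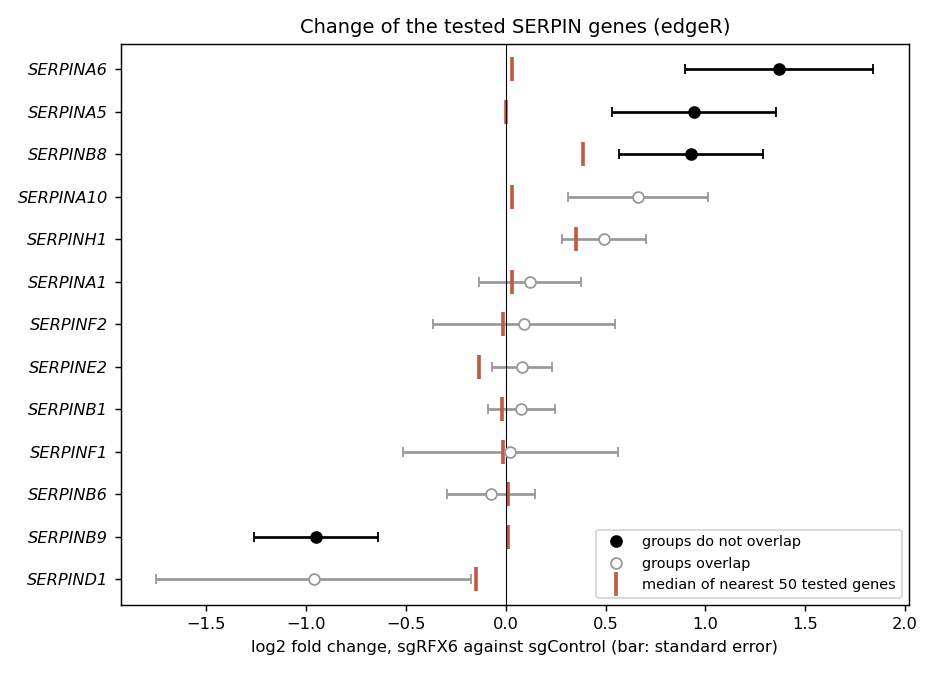
Log2 fold change of the 13 tested serpin genes in sgRFX6 against sgControl, with the standard error as a bar, filled points for the 4 genes whose groups did not overlap and a red tick for the median of the nearest 50 tested genes. SERPINA6, SERPINA5 and SERPINB8 lie between 0.93 and 1.37 and SERPINB9 at -0.95, while the ticks of SERPINB8 and SERPINH1 are at 0.39 and 0.35.

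Of 63 listed proteases, cofactors, receptors and clients of serpins, 58 were in the table and 44 were tested. Of these 7 were called, 1 higher and 6 lower, which is 15.9% against 3.74% of all tested genes. The list was chosen with earlier results of these data known, so that these shares are a description and not a test. The 6 lower genes were PLAT, FURIN, VLDLR and the fibrillar collagen genes COL1A1, COL1A2 and COL3A1, given above. The 20 tested proteases had a median log2 fold change of -0.24, with 5 positive and 15 negative values. This direction rests on sgControl library 2, without which the median was 0.03 with 10 positive and 10 negative values, while it was -0.50 to -0.21 with any other library left out. The 24 cofactors, receptors and clients had a median of -0.04, with 10 positive and 14 negative values. CTSS, the cysteine protease cathepsin S, was the gene that rose, from 10, 41 and 14 counts to 116, 46 and 121 counts (log2 fold change 2.35, SE 0.52, edgeR adjusted p = 0.0421). With 1 library left out it was called without sgControl library 2 or sgRFX6 library 2 and in none of the other 4 fits. CTSL, cathepsin L, had -0.63 (edgeR adjusted p = 0.285) and was lower in every sgRFX6 library, with 429 to 466 CPM against 532 to 1011 CPM. The coagulation proteases showed no call. Thrombin, encoded by F2, had -0.08 (edgeR adjusted p = 0.950), and F10 had -1.03 (edgeR adjusted p = 0.449), with 286 counts in sgControl library 2 and 43 to 72 in the other libraries. Without that library F10 had -0.02 (edgeR adjusted p = 0.991).

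How many serpin genes were called depended on the processing. Beside DESeq2, no serpin gene was called with RLE factors (3.77% of all genes), with scaling by library size only (3.72%), without a filter on low counts (3.26%), with at least 1 CPM in 3 libraries (3.69%) or with the median of the neighbours taken out (3.16%). SERPINA6 alone was called without sgControl library 2 (3.05%) and with the replicate number as a block (5.05%), and SERPINH1 alone with offsets for GC content (11.1%). Leaving out any of the other 5 libraries gave 0 calls. The 7 genes called by limma-voom with sample quality weights were SERPINA5, SERPINA6, SERPINA10, SERPINB8, SERPIND1, SERPINF1 and SERPINH1, among 31.1% of all genes. Of the 15 alternatives, SERPINA6 was called in 3, with adjusted p-values from 0.000101 to 0.472 and a log2 fold change of 1.05 to 2.18 with 1 library left out. SERPINH1 was called in 2, with adjusted p-values from 0.000467 to 0.916, and SERPINA5, SERPINA10, SERPINB8, SERPIND1 and SERPINF1 in 1 each.

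**Figure D5:**
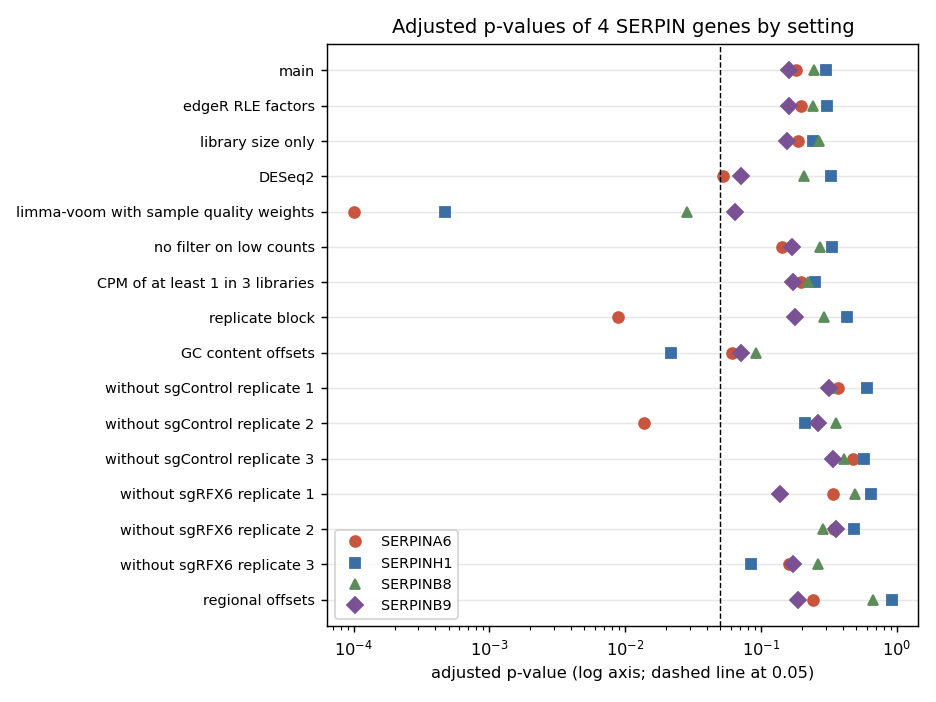
Adjusted p-values of SERPINA6, SERPINH1, SERPINB8 and SERPINB9 on a log axis for each setting of the test, with main for the edgeR test as reported, and a dashed line at 0.05. SERPINA6 lies at 0.181 in the reported test and below the line in 3 of 15 alternatives, and SERPINB9 is never below it.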

How the data were processed

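RNA from Trizol extracts was sequenced as cDNA on an Illumina HiSeq instrument. The authors deposited raw counts, not normalised, for 16721 rows and the 6 Hep3B libraries. Per the labels the build was GRCh38 (hg38). The aligner, counting program and annotation are not given in the sources used here. The control columns are named cas and were taken as sgControl, the only control group. One row without a gene name (at most 9.17e-05% of the counts of a library) was left out.

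The tests used edgeR 4.0.16 under R 4.3.3. FilterByExpr (minimum count 10, minimum total 15) left 12839 genes, libraries were scaled by TMM, and the quasi-likelihood test was run on sgRFX6 against sgControl without covariates. Benjamini-Hochberg adjustment of p-values covered all tested genes, with a threshold of 0.05. The standard error is the log2 fold change divided by the square root of the F statistic. Single genes also had a two-sided exact permutation test, with a smallest possible p-value of 0.1. None of its p-values is given here. Alternatives were DESeq2 1.42.0, limma-voom (limma 3.58.1) with sample quality weights, scaling by RLE or by library size alone, 2 other filters, the replicate number as a block, GC offsets (loess span 0.3, prior count 2), each library left out, and regional offsets from the nearest 50 tested genes, the last chosen after seeing the data.

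The libraries of a group differed by more than sampling noise (chi-square per degree of freedom 17.0 to 124). In simulated counts edgeR recovered 65.5% of 200 changed genes among 12913 tested (37% of 2-fold and 94% of 4-fold changes), and 7.09% of its calls were false. Changes were simulated only in genes above a minimum mean level, which SERPINA5 and SERPIND1 do not reach. Genes were drawn independently, without the GC trends of the real libraries, so that these rates may not hold for the data. Positions and lengths came from GENCODE 29 and promoter windows from RefSeq. The serpin genes described are all named; some results are left out here. Values in every library are given for the 10 of these with the highest mean CPM, and for any with an adjusted p under 0.05. Partner genes are named where they were called, and some direct partners of those serpins are named as well. The members and lists were chosen with earlier results of these data known. Values of SERPINA5 and SERPINF2 in every library, and genes outside this rule, were added after their values were seen.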

Additional observations from a re-analysis of the deposited data

How the results depend on the processing

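The count of called serpin genes, 0 with edgeR, was also 0 with RLE factors, library size only, DESeq2, both other filters and regional offsets, 1 with offsets for GC content (SERPINH1), 7 with limma-voom and 0 to 1 with 1 library left out. The count over all genes was 480, against 908 with DESeq2, 3998 with limma-voom, 1361 with GC offsets and 212 to 718 with 1 library left out (247 higher and 233 lower in all libraries, 85 and 127 without sgControl library 3, and 117 and 189 without sgControl library 1). The count of called partner genes was 7, against 14 with limma-voom and 4 to 8 with 1 library left out. The replicate numbers were tried as a block, which called 648 genes and 1 serpin gene, SERPINA6. The deviations of same-numbered libraries had correlations of -0.41, 0.17 and -0.09. Since the deviations also followed GC content, these correlations cannot decide whether the numbers pair the libraries. The share of serpin counts was 0.0235% in sgControl and 0.0263% in sgRFX6 without SERPINE2. Of 193 log2 fold changes of serpin genes under the alternatives, 172 kept their direction and their side of the threshold, 10 kept the direction and became called, and 11 turned. SERPINB6 was 0.23 with limma-voom. With 1 library left out, SERPINA1 ranged from -0.068 to 0.25, SERPINB6 from -0.21 to 0.12, SERPIND1 from -1.53 to 0.093, SERPINF1 from -0.31 to 1.06 and SERPINF2 from -0.16 to 0.73. SERPINA5 and SERPIND1 had no value under the filter at 1 CPM. The cause of these shifts was not tested, except that a fit with 1 library fewer has fewer samples. The 9 genes with few counts were too low for the reported edgeR test, and in the simulation most 2-fold changes were missed. Whether depth or low expression set these few counts was not tested.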
